A study of Mus musculus with 20 samples.

Results

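A set of 10 genes of bone morphogenetic protein (BMP) signalling was followed in mouse dorsal root ganglia, where the cell bodies of sensory neurons lie, after a cut of the sciatic nerve. The genes were taken by name from a count table of 78258 Ensembl identifiers, 51487 of which matched a mouse symbol; each of the 10 names matched 1 identifier. They are the ligand genes Bmp2, Bmp4 and Bmp7, the antagonist gene Nog, the receptor-regulated SMAD genes Smad1, Smad5 and Smad9, and the target genes Id1, Id2 and Id3. Ganglia of lumbar levels 4 to 6 came from 10 male mice, and each mouse gave 1 contralateral and 1 ipsilateral RNA library, so that 4 groups of 5 libraries were compared. The conditional knockout (cKO) mice (H61, H64, H95, H99 and H100) were Ahr fl/fl with Thy1CRE-ERT2/EYFP, and the control mice (H62, H63, H65, H96 and H97) were Ahr f/f or f/+ with no Cre listed. All mice of both genotypes received tamoxifen at 100 mg/kg i.p. on 5 days at 17 weeks of age, the sciatic nerve was transected 4 weeks after tamoxifen, and the ganglia were taken 1 day after the lesion. The contralateral ganglia therefore came from operated mice, not from unoperated ones. One label field names a spinal cord injury; the protocol, which describes sciatic nerve transection, was followed. The Thy1 promoter drives Cre in neurons, so other cells of the ganglion keep the aryl hydrocarbon receptor gene Ahr.

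BMP ligands are secreted dimers that bind type I and type II receptor kinases, and the activated type I receptor phosphorylates SMAD1, SMAD5 and SMAD9. The phosphorylated SMADs join SMAD4, enter the nucleus and induce target genes, of which the ID genes, inhibitors of basic helix-loop-helix factors, are the classic readout. Noggin, the product of Nog, binds BMP ligands outside the cell and keeps them from their receptors. In sensory neurons SMAD1 is known as a factor of axon growth after peripheral nerve injury. Transcript levels do not show phosphorylation, which is how the SMADs are activated.

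The sequences just upstream of the 3 SMAD genes are shown because these closely related genes moved in different directions after injury. They come from RefSeq promoters on GRCm38.p6, which matched 6 of the 10 genes, and run up to 250 bases before the RefSeq start without entering the annotated gene. Capitals mark GGCGCC, a GC-rich element that SMAD1 and SMAD5 are known to bind, and GCGTG, the core of the element that the aryl hydrocarbon receptor binds, on either strand (the reverse complement of GCGTG reads CACGC).
Smad1 (chr8:79399519-79399678, minus strand, 160 bases): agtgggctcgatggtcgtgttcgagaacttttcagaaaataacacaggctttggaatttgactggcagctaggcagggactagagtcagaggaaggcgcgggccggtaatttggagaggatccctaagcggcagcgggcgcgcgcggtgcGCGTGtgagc
Smad5 (chr13:56702760-56703009, plus strand, 250 bases, the outermost of its RefSeq starts): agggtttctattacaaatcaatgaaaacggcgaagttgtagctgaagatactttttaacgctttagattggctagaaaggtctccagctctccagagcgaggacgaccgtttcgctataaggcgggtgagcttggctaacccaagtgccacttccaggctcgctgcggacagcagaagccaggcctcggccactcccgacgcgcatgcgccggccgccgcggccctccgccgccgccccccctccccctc
Smad9 (chr3:54755332-54755581, plus strand, 250 bases): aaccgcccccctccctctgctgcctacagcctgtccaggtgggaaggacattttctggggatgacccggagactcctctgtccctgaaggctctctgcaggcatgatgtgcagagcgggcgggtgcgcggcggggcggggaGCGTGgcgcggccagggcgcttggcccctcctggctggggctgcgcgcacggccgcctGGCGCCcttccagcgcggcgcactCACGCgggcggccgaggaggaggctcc
The Smad1 window held 1 GCGTG and 0 GGCGCC, the Smad5 window held neither, and the Smad9 window held 2 GCGTG and 1 GGCGCC, with no shared bases between the motifs. Over all 32851 RefSeq windows, GCGTG was found in 28.2% and GGCGCC in 9.59% at 250 bases, and in 17.6% and 5.30% at 160 bases. These shares are not matched for base composition. G and C made up 58.1% of the Smad1 window, 60% of the Smad5 window and 73.2% of the Smad9 window. A match is a run of letters and no evidence that a factor binds there.

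Libraries held 76150333 to 118537209 exonic counts. Values are given as CPM, the count of a gene scaled to the size of its library, after TMM scaling, and log2 fold changes with their standard error (SE) come from an edgeR quasi-likelihood fit of 28564 genes in all 20 libraries. A gene is called where its Benjamini-Hochberg adjusted p, over all 28564 genes, is under 0.05. Atf3, a marker of axotomised neurons, stood at 8.46 to 13.8 CPM in contralateral and 370 to 462 CPM in ipsilateral libraries. Ahr stood at 21.3 to 27.2 CPM in control and 19.5 to 21 CPM in cKO contralateral libraries, apart but not called (log2 fold change -0.25, SE 0.07, edgeR adjusted p = 0.103), and its ipsilateral ranges overlapped. The 16 sensory neuron markers summed to 13771 to 16623 CPM over all libraries; with injury 4 of 16 were called lower and 0 higher in each genotype, with 11 negative in controls (median -0.04) and 12 in cKO mice (median -0.08). The part of neuronal RNA in the falls of Nog and Smad9 was not tested. In bulk ganglia, fewer cells of a type and less RNA per cell cannot be told apart. The contralateral cKO libraries of 3 mice (H64, H95 and H100) stood apart in their fibroblast markers, with a sum over 8 markers of 2049 to 2472 CPM against 832 to 1719 CPM in the other 17 libraries. With these 3 left out, 5 of 16 neuron markers were called lower and all 16 were negative with injury in cKO mice (median -0.16). Counts and medians of the 10 genes and of the pathway list with injury in cKO mice are given with and without these libraries.

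Per kilobase of exon, which allows levels to be compared between genes, Id3 was the most abundant of the 10 genes in every group, at 26.2 ± 1.81 CPM per kb in control contralateral ganglia (SD, n = 5). Smad9 followed at 15.6 ± 1.24 CPM per kb, then Id2 at 8.51 ± 0.59, Id1 at 8.43 ± 0.88 and Smad1 at 7.03 ± 0.21 CPM per kb; the range of Id1 overlapped those of Id2 and Smad1. Below them came Nog at 5.87 ± 0.78, Smad5 at 3.94 ± 0.16, Bmp7 at 2.77 ± 0.46, Bmp4 at 1.13 ± 0.84 and Bmp2 at 0.41 ± 0.07 CPM per kb; of these neighbours only Bmp7 and Bmp4 overlapped. Among the 3 SMAD genes the order changed with injury. In control ipsilateral ganglia Smad1 stood at 12.4 ± 0.26 CPM per kb and Smad9 at 9.66 ± 0.38 CPM per kb, with ranges apart and the reverse of the contralateral order. The same reversal of order was seen in cKO mice, at 6.42 ± 0.48 for Smad1 and 15.1 ± 1.51 CPM per kb for Smad9 contralaterally and 12.2 ± 0.58 and 9.22 ± 0.65 CPM per kb ipsilaterally. Nog stood above Bmp7 contralaterally in control mice, and their ranges overlapped after injury, at 2.88 ± 0.25 for Nog and 3.04 ± 0.65 CPM per kb for Bmp7.

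**Figure D1:**
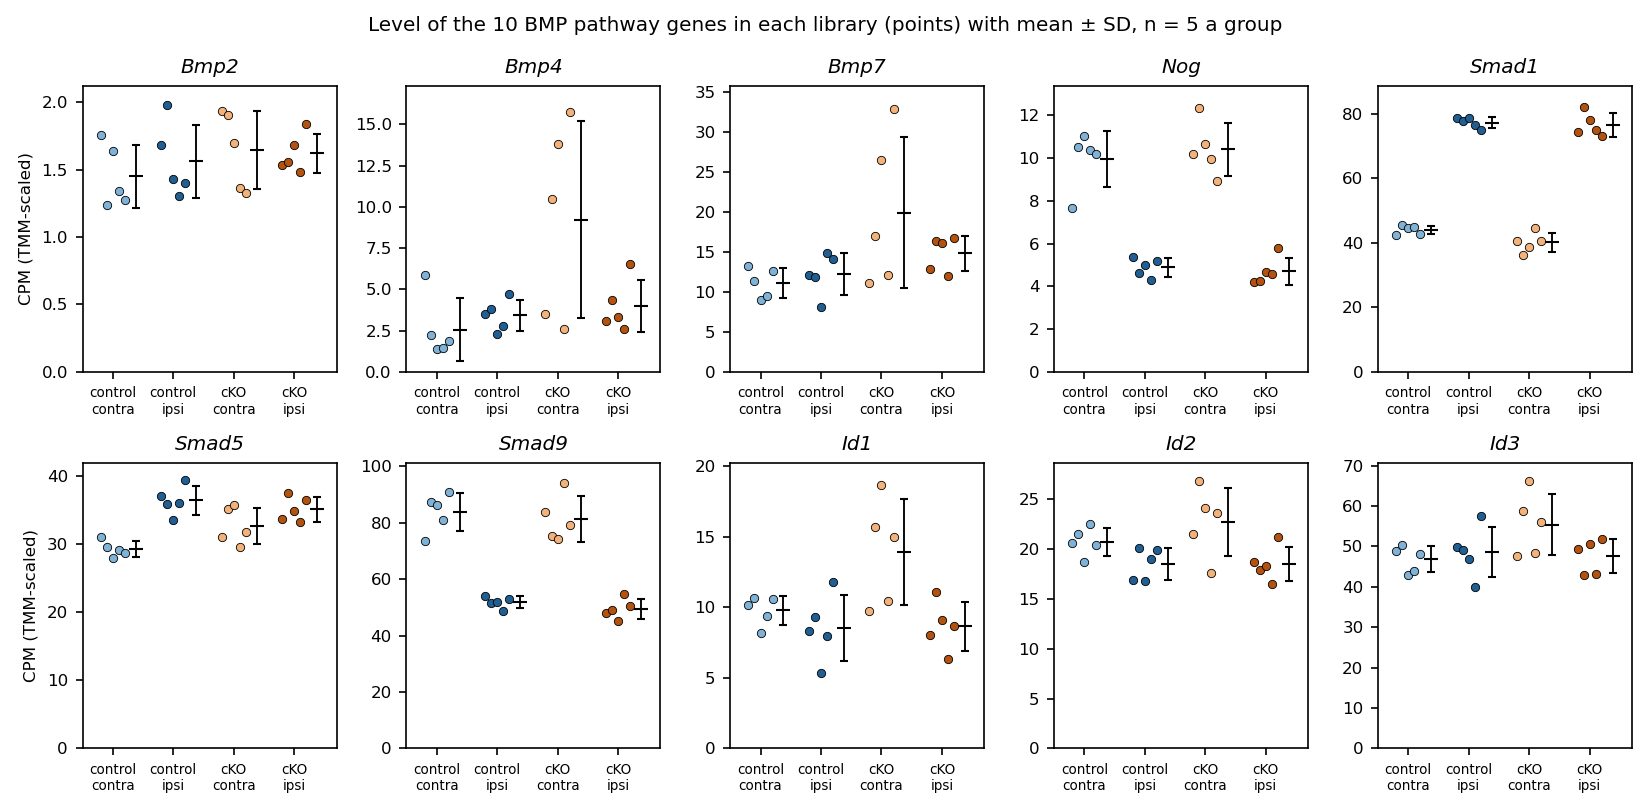
TMM-scaled CPM of the 10 genes in each library, with 1 panel a gene, 4 groups of 5 libraries on the x axis, and the mean ± SD beside the points; every y axis starts at 0. Smad1 rises and Nog and Smad9 fall from the contralateral to the ipsilateral side with no overlap in either genotype, while Bmp4 spreads from 2.57 to 15.8 CPM in the cKO contralateral group.

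The first question was how transection changes these genes in control ganglia. Smad1 and Smad5 rose, Smad9 and the antagonist gene Nog fell, and none of the 3 ligand genes or 3 Id genes passed the test. This made 4 of 10 genes called, 2 higher and 2 lower, where 29.9% of all genes tested were called, 13.8% higher and 16.0% lower. The median log2 fold change of the 10 genes was 0.08 and that of all genes -0.0047. The same comparison in cKO ganglia called 5 of 10 genes, 1 higher and 4 lower, against 31.3% of all genes (16.2% higher, 15.1% lower), with medians of -0.36 and -0.03. Without the 3 contralateral cKO libraries that stood apart, 4 of 10 were called in cKO mice, 2 higher and 2 lower, beside 23.2% of all genes, and the medians were -0.013 for the 10 genes and 0.00040 for all genes.

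Smad1 encodes the receptor-regulated SMAD tied to axon growth. Its CPM was 42.5, 45.5, 44.5, 44.8 and 42.9 in the control contralateral libraries of H62, H63, H65, H96 and H97 and 78.6, 78.0, 78.7, 76.5 and 74.9 in their ipsilateral libraries. In cKO mice it was 40.7, 36.4, 38.7, 44.5 and 40.7 CPM contralaterally (H61, H64, H95, H99 and H100) and 74.5, 82.2, 78.0, 75.1 and 73.0 CPM ipsilaterally. Every ipsilateral library lay above every contralateral one, and the gene rose in 5 of 5 mice of each genotype. The log2 fold change was 0.81 in controls (SE 0.04, 1.76-fold, edgeR adjusted p = 6.04e-12) and 0.93 in cKO mice (SE 0.04, 1.91-fold, edgeR adjusted p = 6.13e-13). The difference between these responses, the interaction term, was 0.12 (SE 0.06, edgeR adjusted p = 0.526), and 0.03 without the 3 contralateral cKO libraries that stood apart.

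Smad9, which encodes the third receptor-regulated SMAD of the branch, moved the other way. Its CPM was 73.6, 87.4, 86.1, 81.0 and 90.7 in control contralateral and 54.2, 51.5, 51.8, 48.7 and 52.9 in control ipsilateral libraries, with the mice in the order given for Smad1. The cKO libraries gave 83.8, 75.2, 74.1, 94.1 and 79.1 CPM contralaterally and 47.9, 49.2, 45.3, 54.8 and 50.4 CPM ipsilaterally. The 2 sides did not overlap in either genotype, and Smad9 fell in 5 of 5 mice of each. The log2 fold change was -0.69 in controls (SE 0.06, 1.62-fold lower, edgeR adjusted p = 4.85e-08) and -0.71 in cKO mice (SE 0.06, 1.64-fold lower, edgeR adjusted p = 2.56e-08).

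Smad5, the closest relative of Smad1 in function, moved less. Its CPM was 31.0, 29.6, 27.9, 29.1 and 28.6 in control contralateral and 37.1, 35.9, 33.6, 36.1 and 39.4 in control ipsilateral libraries, again with no overlap. The cKO mice had 31.0, 35.2, 35.7, 29.5 and 31.8 CPM contralaterally and 33.7, 37.5, 34.9, 33.2 and 36.4 CPM ipsilaterally, and here the sides overlapped. The gene rose in controls (log2 fold change 0.32, SE 0.05, 1.24-fold, edgeR adjusted p = 8.70e-05) and was not called in cKO mice, where 4 of 5 mice were higher ipsilaterally (log2 fold change 0.11, SE 0.05, edgeR adjusted p = 0.137). The interaction was -0.21 (SE 0.07), with an unadjusted edgeR p of 0.0106 and an adjusted p of 0.485, so a difference between the genotypes was not established. Without the 3 contralateral cKO libraries that stood apart, the cKO change was 0.22 and called (edgeR adjusted p = 0.00780), and the interaction was -0.10. A short noncoding RNA gene, Gm27301, overlaps 100 exonic bases of Smad5 on the same strand, and its reads cannot be told apart from those of Smad5.

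Nog encodes noggin, the secreted inhibitor of BMP ligands. Its CPM was 7.65, 10.5, 11, 10.4 and 10.2 in control contralateral and 5.36, 4.62, 4.99, 4.30 and 5.17 in control ipsilateral libraries. In the cKO mice, Nog stood at 10.2, 12.3, 10.7, 9.96 and 8.95 CPM contralaterally and 4.19, 4.25, 4.66, 4.58 and 5.80 CPM ipsilaterally. All 10 ipsilateral libraries lay below all 10 contralateral ones. Nog fell by a log2 fold change of -1.03 in controls (SE 0.10, 2.04-fold lower, edgeR adjusted p = 1.64e-07) and -1.15 in cKO mice (SE 0.10, 2.22-fold lower, edgeR adjusted p = 2.70e-08), in 5 of 5 mice of each genotype. The interaction was -0.12 (SE 0.15, edgeR adjusted p = 0.795), and -0.08 without the 3 contralateral libraries.

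**Figure D2:**
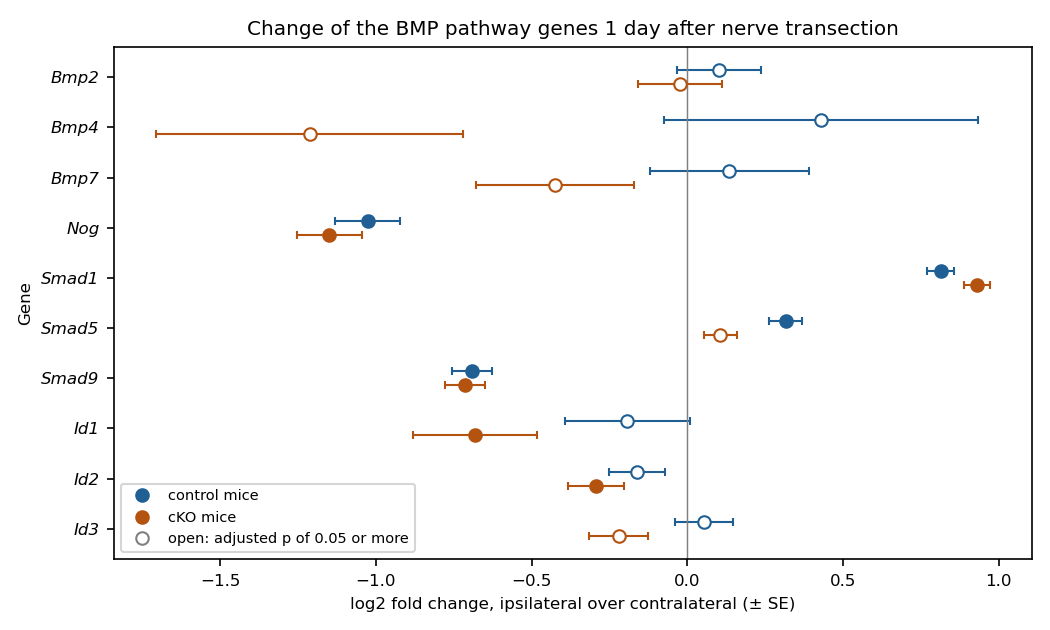
Log2 fold change (x axis, ipsilateral over contralateral, bars are ± SE) of the 10 genes in control and cKO mice, n = 5 mice each, with filled points for genes called. Smad1 rises by 0.81 and 0.93, Nog falls to -1.03 and -1.15 and Smad9 to -0.69 and -0.71, while the wide bars of Bmp4 cross 0 in controls.

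The 3 ligand genes were not called after injury in either genotype. Bmp2 was the least abundant, with 101 to 187 counts a library, and ranged from 1.24 to 1.98 CPM in controls and from 1.33 to 1.93 CPM in cKO mice over both sides. Its log2 fold change was 0.10 (SE 0.13) in controls and -0.02 (SE 0.13) in cKO mice. Bmp4 was the most variable of the 10 genes. It stood at 5.89, 2.20, 1.37, 1.42 and 1.86 CPM in control contralateral and 3.52, 3.78, 2.32, 2.77 and 4.71 CPM in control ipsilateral libraries. The cKO libraries held 3.50, 10.5, 13.8, 2.57 and 15.8 CPM contralaterally and 3.07, 4.35, 3.31, 2.62 and 6.55 CPM ipsilaterally. The highest 3 values of all 20 libraries are the contralateral libraries of H64, H95 and H100, and H62 is the highest of the control contralateral group. The log2 fold change was 0.43 (SE 0.50, edgeR adjusted p = 0.590) in controls and -1.21 (SE 0.49, edgeR adjusted p = 0.0730) in cKO mice. With DESeq2 (adjusted p = 0.0478), or in edgeR without mouse H62 (adjusted p = 0.0476), the cKO change of -1.21 was called; without the 3 contralateral libraries it was 0.40 (edgeR adjusted p = 0.664), in the other direction. The interaction was -1.64 (SE 0.70), with an unadjusted edgeR p of 0.0327 and an adjusted p of 0.498; without the 3 contralateral libraries it was -0.04. Gm15217 overlaps 89 exonic bases of Bmp4 on the opposite strand, and the strand setting of the counts is not given in the sources used here.

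Bmp7 followed the same libraries. Its CPM was 13.2, 11.3, 9.04, 9.53 and 12.6 in control contralateral and 12.2, 11.8, 8.16, 14.9 and 14.1 in control ipsilateral libraries. The cKO values were 11.2, 16.9, 26.6, 12.1 and 32.9 CPM contralaterally and 12.9, 16.4, 16.1, 12 and 16.8 CPM ipsilaterally. Mice H95 and H100 were the 2 highest of all libraries, on the contralateral side. The log2 fold change with injury was 0.13 (SE 0.26) in controls and -0.43 (SE 0.25, edgeR adjusted p = 0.227) in cKO mice, and 0.36 (edgeR adjusted p = 0.257) in cKO mice without the 3 contralateral libraries.

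The target genes Id1, Id2 and Id3 did not pass the test in controls, with log2 fold changes of -0.19 (SE 0.20), -0.16 (SE 0.09) and 0.05 (SE 0.09). In cKO mice Id1 and Id2 fell. Id1 stood at 10.1, 10.6, 8.17, 9.40 and 10.6 CPM in control contralateral and 8.34, 9.33, 5.35, 7.93 and 11.8 CPM in control ipsilateral libraries. The cKO values were 9.74, 15.7, 18.6, 10.4 and 15 CPM contralaterally and 8.05, 11.1, 9.07, 6.34 and 8.66 CPM ipsilaterally. The contralateral libraries of H64, H95 and H100 lay above all 17 others, and the cKO sides overlapped. The log2 fold change in cKO mice was -0.68 (SE 0.20, 1.61-fold lower, edgeR adjusted p = 0.0133), lower in 5 of 5 mice. Id1 was no longer called without mouse H95 (-0.57, edgeR adjusted p = 0.0677) or H100 (-0.66, edgeR adjusted p = 0.0511). Without the 3 contralateral libraries the change of Id1 was -0.22 (edgeR adjusted p = 0.567), and the interaction was -0.49 (SE 0.28, edgeR adjusted p = 0.567) with all libraries and -0.03 without those 3.

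Id2 ranged from 18.7 to 22.5 CPM in control contralateral, 16.8 to 20.1 in control ipsilateral, 17.6 to 26.8 in cKO contralateral and 16.5 to 21.2 CPM in cKO ipsilateral libraries. It was lower ipsilaterally in 5 of 5 mice of each genotype, by at most a log2 change of -0.28 in controls and -0.58 in cKO mice. In cKO mice Id2 fell by a log2 fold change of -0.29 (SE 0.09, 1.23-fold lower, edgeR adjusted p = 0.0163). That call was lost without H64 (-0.22) or H95 (-0.27), when only the libraries compared were fitted (-0.27), and without the 3 contralateral libraries (-0.07, edgeR adjusted p = 0.678). Id3 ranged from 40.0 to 57.4 CPM in controls and from 42.8 to 66.1 CPM in cKO mice. Its cKO log2 fold change was -0.22 (SE 0.09, edgeR adjusted p = 0.0852), and with mouse as a replicate block it was -0.21 and called (edgeR adjusted p = 0.0350). Id3 was also called without mouse H61 (-0.28, edgeR adjusted p = 0.0491), and without the 3 contralateral libraries its change was -0.01. With those libraries left out, 4 of the 10 genes were called in cKO mice (Smad1, Smad5, Smad9 and Nog), where 23.2% of all genes were. Those are the 4 genes called in controls. That setting was added after seeing the data and leaves 2 libraries in the cKO contralateral group.

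The second question was whether these genes differed between the cKO and control genotypes on either side; Ahr itself was not called between them. On the contralateral side 0 of 10 genes was called by edgeR, where 0.0735% of all genes were; 6 of 10 had an unadjusted p under 0.05, where 17.5% of all genes did. Bmp4 was higher in cKO mice by a log2 fold change of 1.86 (SE 0.51, edgeR adjusted p = 0.113) and Bmp7 by 0.84 (SE 0.26, edgeR adjusted p = 0.128), with overlapping ranges in both. For Id1 and Id3 the log2 fold changes were 0.51 (SE 0.20) and 0.24 (SE 0.09), with edgeR adjusted p of 0.202 and 0.198. Smad1 differed by -0.13 (SE 0.04) and Smad5 by 0.16 (SE 0.05), with edgeR adjusted p of 0.137 and 0.141. Nog differed by 0.07 (SE 0.10) and Smad9 by -0.04 (SE 0.06). DESeq2 called Bmp4 and Bmp7, 2 of 10 genes where it called 3.64% of all genes. Without mouse H99, edgeR called 4 of 10 (Bmp4, Bmp7, Smad1 and Smad5), where it called 11.5% of all genes. Without the 3 libraries high in fibroblast markers it called 0 of 10, where it called 0.00668% of all genes, and the log2 fold changes were 0.26 for Bmp4, 0.07 for Bmp7, 0.05 for Id1, 0.04 for Id3, -0.05 for Smad1 and 0.05 for Smad5.

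All 8 fibroblast markers had a positive contralateral log2 fold change in cKO mice, with a median of 0.89 and 0 called. With injury in cKO mice 7 of 8 were negative, with a median of -0.65 and 1 called lower; in controls all 8 were positive, with a median of 0.32 and 0 called. Their sum was 832 to 1504 CPM in control contralateral, 980 to 1585 in control ipsilateral, 995 to 2472 in cKO contralateral and 909 to 1719 CPM in cKO ipsilateral libraries. None of the 8 was at 0 in any library, and the lowest, Dpt, stood at 0.98 to 8.81 CPM. Of the 11 macrophage and 7 neutrophil markers, all were positive in contralateral cKO ganglia, with medians of 0.31 and 0.75, and 0 were called. With injury in controls all 11 macrophage markers (median 0.50, 1 called higher) and all 7 neutrophil markers (median 0.59, 0 called) were positive. In cKO mice 8 of 11 macrophage markers (median 0.20) and 1 of 7 neutrophil markers (median -0.10) were positive with injury, and 0 were called. All 9 endothelial markers were positive in contralateral cKO against control ganglia, with a median of 0.17 and 0 called. Of the 10 lymphocyte markers 9 were negative in the same comparison (median -0.48), as were 8 with injury in controls (-0.24) and 9 in cKO mice (-0.32), with 0 called. Of the 7 satellite glia markers 2 were called higher with injury in each genotype, with medians of 0.14 in controls and -0.01 in cKO mice. The 7 skeletal muscle markers were all positive contralaterally in cKO mice (median 1.43) and all negative with injury in cKO mice (median -3.08), with 0 called. In controls 6 of 7 were positive with injury (median 0.54), with 0 called. Their sum was 11.1 to 403 CPM in control contralateral, 8.88 to 702 in control ipsilateral, 7.45 to 1858 in cKO contralateral and 4.90 to 129.9 CPM in cKO ipsilateral libraries, and none was at 0 in any library. The highest sum was in the contralateral library of H100, which was also the highest in Bmp4 and Bmp7. The contralateral libraries of H64 and H95, next in Bmp4 and Bmp7, held 22.5 and 71.1 CPM of muscle markers. With the 3 contralateral libraries left out, 7 of 8 fibroblast markers (median 0.24), all 11 macrophage (0.66), all 7 neutrophil (0.72) and all 7 muscle markers (1.71) were positive with injury in cKO mice, with 2 macrophage markers called higher and 0 of the others called. Between genotypes contralaterally, leaving out those 3 libraries gave positive values for 5 of 8 fibroblast (median 0.04), 0 of 11 macrophage (-0.29) and 2 of 7 neutrophil markers (-0.07). Positive too were 7 of 9 endothelial (0.08), 0 of 10 lymphocyte (-0.71) and 0 of 7 muscle markers (-3.64), with 0 called in these lists. The part of these cells in the injury and genotype values of the 10 genes was not tested.

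**Figure D3:**
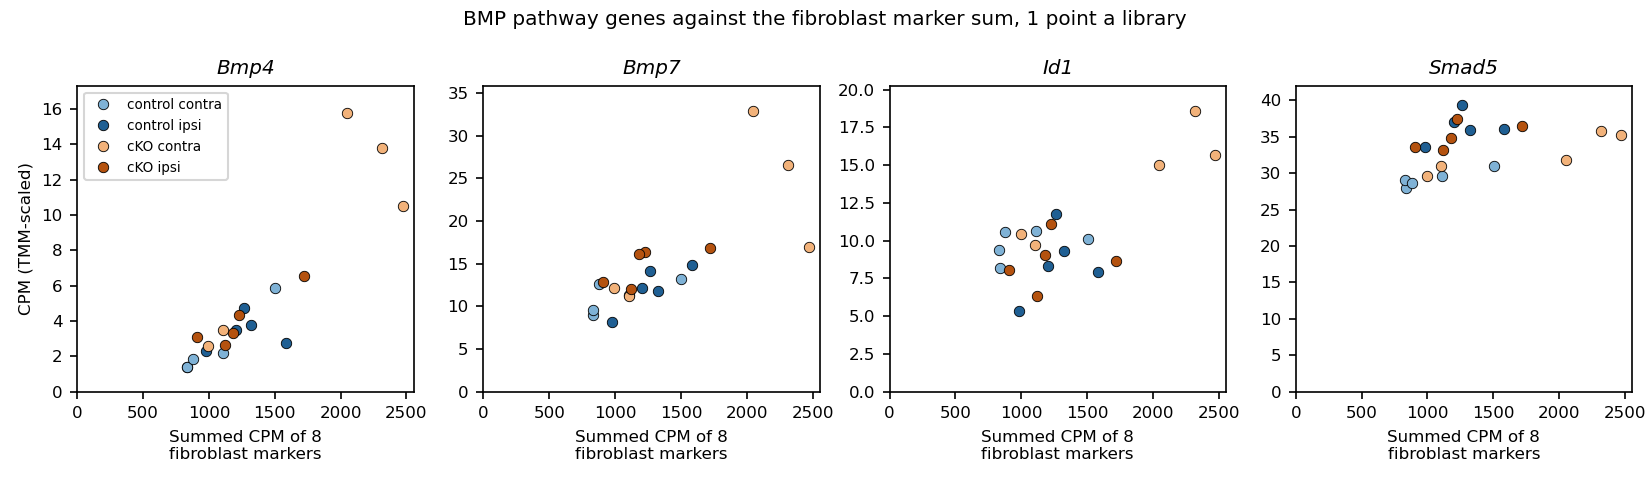
TMM-scaled CPM of Bmp4, Bmp7, Id1 and Smad5 (y axes, from 0) against the summed CPM of 8 fibroblast markers (x axis), 1 point a library, 20 libraries. The contralateral cKO libraries of H64, H95 and H100 sit to the right at 2472, 2316 and 2049 CPM and hold the 3 highest values of Bmp4 and Id1.

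On the ipsilateral side 0 of 10 genes was called between genotypes, where 0.00700% of all genes were, and 0 of 10 had an unadjusted p under 0.05, where 2.36% of all genes did. The log2 fold changes ran from -0.07 for Smad9 (SE 0.06) to 0.28 for Bmp7 (SE 0.26). DESeq2 called 0 of 10 as well, where it called 0.0105% of all genes. For the interaction of genotype and injury, 0 of 10 genes was called by edgeR or DESeq2, where edgeR called 0% and DESeq2 0.0385% of all genes; Smad5 and Bmp4 had an unadjusted p under 0.05, and 9.80% of all genes did. The contralateral and ipsilateral libraries of each genotype enter several of these comparisons, so their values are not independent of each other.

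The wider pathway was read from a list of 55 further genes, 52 of which had enough counts for the test. In controls 19 of 52 were called after injury, 11 higher and 8 lower, beside 29.9% of all genes, and in cKO mice 21 of 52, 7 higher and 14 lower, beside 31.3%. The median log2 fold change was 0.06 in controls and -0.08 in cKO mice. Without the 3 contralateral libraries 17 of 52 were called in cKO mice, 10 higher and 7 lower, where 23.2% of all genes were, and the median was 0.08. The counts by role stand beside the same shares of all genes, 29.9% in controls and 31.3% in cKO mice, and nothing is read from those near them.

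Among the extracellular antagonists and modulators 5 of 17 were called in controls (3 higher, 2 lower) and 7 of 17 in cKO mice (2 higher, 5 lower), beside 29.9% and 31.3% of all genes; without the 3 contralateral libraries 6 were called in cKO mice (4 higher, 2 lower), beside 23.2%. Fst encodes follistatin, which binds activins and some BMPs, and had the largest rise among the listed genes called higher. It stood at 4.10, 2.99, 2.84, 3.02 and 2.79 CPM in control contralateral and 17.7, 21, 20.3, 16.0 and 16.3 CPM in control ipsilateral libraries. The cKO libraries held 2.67, 2.98, 2.30, 2.71 and 2.74 CPM contralaterally and 20.1, 20.9, 20.6, 16.7 and 16.8 CPM ipsilaterally. Fst was thus low in all 10 contralateral and high in all 10 ipsilateral libraries, with log2 fold changes of 2.53 (SE 0.11, 5.79-fold, edgeR adjusted p = 5.19e-13) and 2.83 (SE 0.11, 7.10-fold, edgeR adjusted p = 1.13e-13). An antisense gene, Gm47040, overlaps 115 exonic bases of Fst. Bambi, a decoy receptor without a kinase domain, fell by a log2 fold change of -0.58 in controls and -0.73 in cKO mice. In controls Bmper, which encodes a chordin-related modulator, rose (0.35), and the antagonist gene Cer1 fell (-0.44), from 1.69 ± 0.14 to 1.24 ± 0.24 CPM (SD, n = 5). The Bmper call was lost without H63, H65, H96 or H97 (edgeR adjusted p of 0.0667 to 0.0865), and the Cer1 call without H65 (-0.34, edgeR adjusted p = 0.129) or H96 (-0.38, edgeR adjusted p = 0.0821). In cKO mice neither was called (0.10 and -0.32), and without the 3 contralateral libraries both were (0.40 and -0.51); Cer1 was also called without H95 (-0.41). In cKO mice Crim1, a membrane protein that holds BMPs, fell (-0.44), against an uncalled -0.03 in controls, and was not called without H95 (-0.36, edgeR adjusted p = 0.0700) or without the 3 contralateral libraries (-0.13).

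Of the 11 receptors and co-receptors, 6 were called in controls (5 higher, 1 lower) and 4 in cKO mice (3 higher, 1 lower), beside 29.9% and 31.3% of all genes; without the 3 contralateral libraries 5 were called in cKO mice (4 higher, 1 lower), beside 23.2%. Acvr1, which encodes the type I receptor ALK2, rose from 21 ± 1.19 to 39.1 ± 1.82 CPM in controls (log2 fold change 0.90, SE 0.05, edgeR adjusted p = 3.80e-12) and from 21.5 ± 0.71 to 41.0 ± 2.40 CPM in cKO mice (0.93, SE 0.05, edgeR adjusted p = 1.69e-12; SD, n = 5). Bmpr1b, another type I receptor gene, fell, from 8.14 ± 0.93 to 5.93 ± 0.46 CPM in controls (log2 fold change -0.46) and from 9.13 ± 1.59 to 5.64 ± 0.74 CPM in cKO mice (-0.70). In controls the endothelial receptor gene Eng rose (0.58), and so did 3 of 9 endothelial markers, all 9 of which were positive with a median of 0.38; the share of endothelial cells in this rise was not tested. Acvrl1, a second endothelial receptor gene, was called in controls at 0.31 (edgeR adjusted p = 0.0471), a call lost with no filter or without H63, H65, H96, H97, H61 or H100 (0.28 to 0.38 over all mice left out). In cKO mice Eng (0.26) and Acvrl1 (0.05) were not called. Without the 3 contralateral libraries Acvrl1 was called in cKO mice (0.35, edgeR adjusted p = 0.0191). Of the 9 endothelial markers 6 were positive with injury in cKO mice (median 0.08), and 8 without those libraries (median 0.25), with 0 called in either. The co-receptor gene Rgmb rose in both genotypes, from 359 ± 6.17 to 399.9 ± 7.96 CPM in controls (log2 fold change 0.16) and from 323 ± 25.5 to 401 ± 1.27 CPM in cKO mice (0.31).

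Of the 8 listed pathway ligands tested, 1 was called in each genotype, beside 29.9% and 31.3% of all genes. Without the 3 contralateral libraries 1 was called in cKO mice, beside 23.2%. This was Bmp15, known as an oocyte factor, which fell from 7.40 ± 0.28 to 3.92 ± 0.39 CPM in controls (log2 fold change -0.92) and from 6.43 ± 1.41 to 4.86 ± 0.73 CPM in cKO mice (-0.40), a call lost when only the libraries compared were fitted (-0.39, edgeR adjusted p = 0.0899). Of the 3 chordin proteases, 2 were called in controls and 1 in cKO mice, beside 29.9% and 31.3% of all genes. In cKO mice without the 3 contralateral libraries 2 were called, beside 23.2%. Bmp1 rose in controls (0.84) and was not called in cKO mice (0.37), except with DESeq2 (0.37), with mouse as a block (0.42, edgeR adjusted p = 0.0485), without H64 (0.47) or without the 3 contralateral libraries (0.93). Tll1 fell in controls (-0.47) and in cKO mice (-0.64). Among the co-SMAD, inhibitory SMADs and their ubiquitin ligases, 3 of 8 were called in controls (2 higher, 1 lower) and 4 of 8 in cKO mice (2 higher, 2 lower), beside 29.9% and 31.3% of all genes; without the 3 contralateral libraries 1 was called in cKO mice, beside 23.2%. Smad6 and Smad7 encode the inhibitory SMADs, which are themselves induced by BMP signals, and both fell in cKO mice (-1.03 and -0.45). In controls they were not called (-0.35 and -0.34), except with mouse as a fixed block (-0.36 and -0.34, edgeR adjusted p = 0.0389 and 0.0130). Smad6 stood at 4.90, 6.64, 7.78, 4.12 and 6.79 CPM in cKO contralateral and 3.28, 3.74, 2.58, 2.13 and 3.12 CPM in cKO ipsilateral libraries, against 2.76 to 4.39 CPM in control contralateral ones. Neither Smad6 (-0.60, edgeR adjusted p = 0.0553) nor Smad7 (-0.03) was called without the 3 contralateral libraries. The Smad7 call in cKO mice was also lost with no filter (-0.43, edgeR adjusted p = 0.0950) and without H64, H95, H97 or H100 (edgeR adjusted p of 0.0531 to 0.169). Of the 5 other target genes, 2 were called lower in controls and 4 in cKO mice, beside 16.0% and 15.1% of all genes called lower. In cKO mice without the 3 contralateral libraries 2 were called lower, beside 3268 of 29937 genes. Id4 fell in both, with log2 fold changes of -0.29 in controls and -0.33 in cKO mice, and the bHLH gene Atoh8 fell in cKO mice (-0.77) with an uncalled value of 0.28 in controls; without the 3 contralateral libraries Id4 was still called (-0.27) and Atoh8 was not (-0.27, edgeR adjusted p = 0.535), nor was Atoh8 without H95 (-0.58, edgeR adjusted p = 0.102).

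Between genotypes 0 of 52 pathway genes was called on either side or for the interaction, with 19 (contralateral), 2 (ipsilateral) and 9 (interaction) at an unadjusted p under 0.05, where 17.5%, 2.36% and 9.80% of all genes were. DESeq2 called 8 contralaterally, where it called 3.64% of all genes, and edgeR without mouse H99 called 10, where it called 11.5%; DESeq2 called 0 ipsilaterally and 0 for the interaction, where it called 0.0105% and 0.0385%. EdgeR without the 3 contralateral libraries called 0 of 52 on either side and for the interaction.

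**Figure D4:**
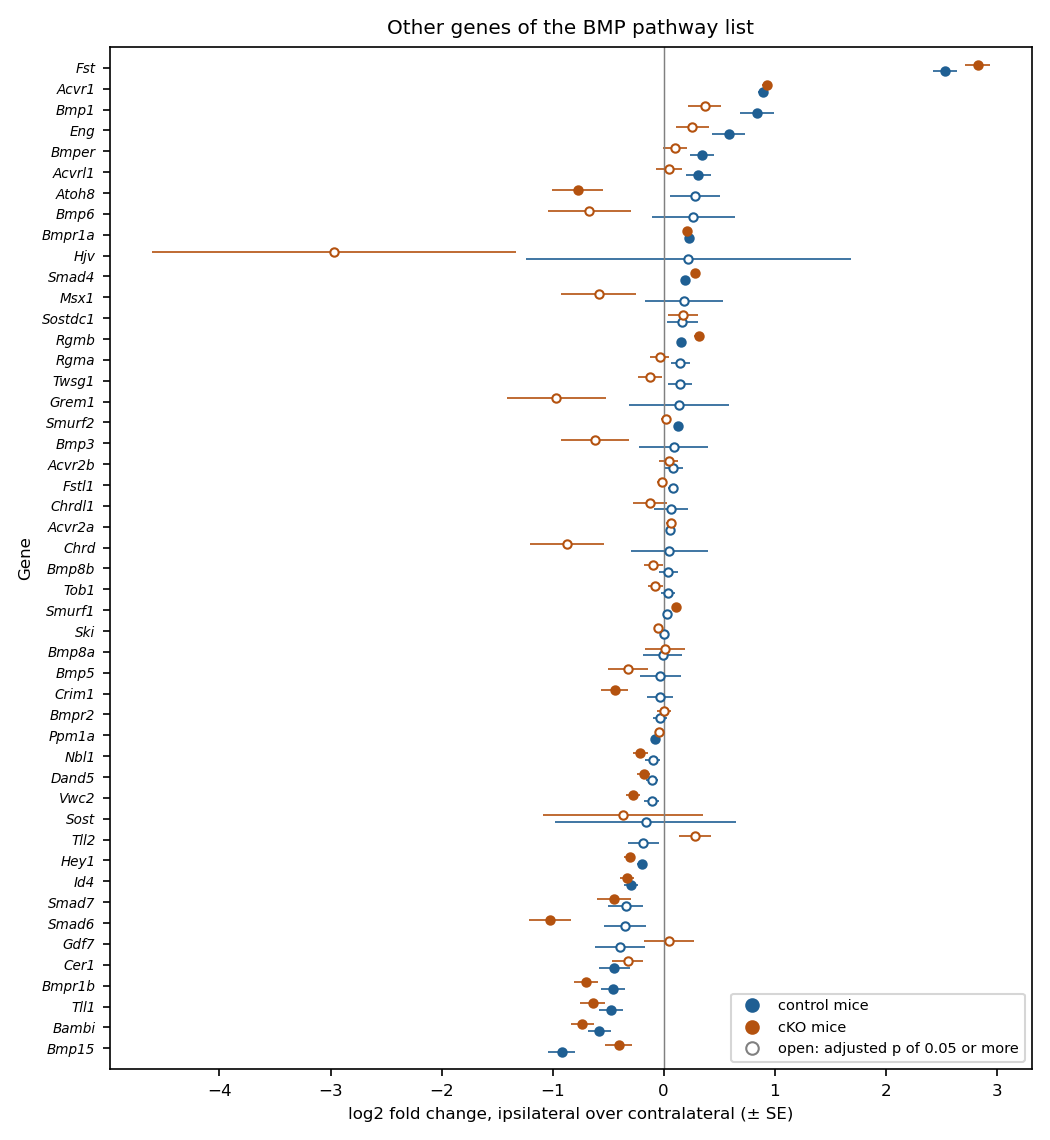
Log2 fold change (x axis, ipsilateral over contralateral, bars are ± SE) of 48 pathway genes that averaged 0.5 CPM or more in some group, in control and cKO mice, n = 5 mice each, with filled points for genes called and genes ordered by the control value. Among the genes called higher, Fst stands apart at 2.53 and 2.83 and Acvr1 follows at 0.90 and 0.93. The lowest point is Hjv, not called in cKO mice (-2.97, SE 1.64). Hjv held 843 counts in the contralateral library of H100, the highest in muscle markers, and 2 to 27 in the other contralateral cKO libraries.

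The genes whose log2 CPM ran most like that of Smad1 over the 20 libraries, among 11914 named genes averaging 5 CPM or more, were Zswim4 (Pearson r = 0.995), Syt4 (0.995) and Gpr151 (0.994). For Nog they were Oprl1 (0.967), Ankrd55 (0.962) and Vwc2l (0.961). These correlations describe libraries that share the split between sides, and the pairs of libraries from 1 mouse.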

How the data were processed

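Exonic counts per gene, 1 column for each of the 20 libraries, were deposited by the authors as whole numbers without normalization; all value columns were assigned by library name (0 were left unassigned). Per the labels' protocols, the libraries came from a stranded mRNA kit and paired reads on a NovaSeq X. The submitters' processing notes name HISAT2, Picard, mm10 and mm39 with no role; the counter and the strand setting are not given in the sources used here. A deposited table of normalized values was not used, since its gene lengths are not stated. Symbols and merged exon lengths came from GENCODE M21, and the authors' annotation may differ from it.

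Counts were filtered (filterByExpr, minimum count 10, minimum total 15) and tested in R 4.3.3 with edgeR 4.0.16 (TMM, robust quasi-likelihood), with a mean for each of the 4 groups over all 20 libraries. P-values measure the spread between libraries within the groups, with the 2 libraries of a mouse treated as independent. The code was tested on simulated data. The 2 libraries of a mouse come from the same animal, which pairs them; their deviations from the group means correlated with a median r of 0.186 (-0.0546 to 0.361), over 0.1 in 7 of 10 mice. Alternatives were DESeq2 1.42.0, RLE size factors, no filter, an average of 1 CPM or more, only the libraries compared, a covariate for the range of the mouse numbers, mouse as a replicate block (fixed, or random in limma 3.58.1) and leaving out each mouse. Leaving out the 3 contralateral cKO libraries with a fibroblast sum over 2000 CPM was added after seeing the data, and leaves 2 libraries in that group. The 10 genes, the pathway list and the markers were chosen with earlier results of these data known. Named pathway genes are the 12 largest changes among those called that averaged 0.5 CPM or more in the higher group, in each injury comparison. Of these, 1 is not reported here by name.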

Additional observations from a re-analysis of the deposited data

Results flagged for a closer look

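Of 60 sets of 5 values (the CPM of each gene in each group, and the per-mouse change of each gene in each genotype), 5 held a value far from the other 4, where chance gives about 3. The measure is the gap to the nearest value divided by the whole range, and the limit is 0.71. In control contralateral ganglia mouse H62 was the lowest for Nog (7.65 CPM, ratio 0.752) and the highest for Bmp4 (5.89 CPM, ratio 0.816). H62 also had the smallest fall of Smad9 among controls, at -0.44 on the log2 scale (ratio 0.866), and the only fall of Bmp4 among controls, at -0.74 (ratio 0.718). Its contralateral fibroblast sum of 1504 CPM was the highest of the control contralateral group. Mouse H97 had the largest rise of Smad5 among controls, at 0.46 (ratio 0.738).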

How the results depend on the processing

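Injury in controls called 4 of the 10 genes under every alternative. All genes called ran from 7176 of 56837 (no filter) to 7846 of 19364 (an average of 1 CPM or more), so nothing is read from the constant count. In cKO mice the count of 5 became 4 to 6 under alternatives that kept all mice. All genes called there ran from 7467 of 56837 to 8282 of 19364 under the same settings. With 1 mouse left out the cKO count was 3 (without H95, where 7469 of 28772 genes were called) to 6. Between genotypes on the contralateral side the count of 0 became 2 with DESeq2 and ranged from 0 to 4 with 1 mouse left out, the 4 without H99. For the 52 pathway genes it became 8 with DESeq2 and ranged from 0 to 10. Of all genes, DESeq2 called 3.64% there and edgeR without H99 called 11.5%. The ipsilateral and interaction counts were 0 throughout, for the 10 genes and for the pathway list. Over all genes the ipsilateral count was 2, or 3 with DESeq2. The interaction count over all genes was 0, except 11 with DESeq2 and 43 without H99. Of 1296 alternative values of 69 gene results, 1229 kept their direction and call, 32 lost the call, 22 gained it and 13 changed sign. With 1 mouse left out, sign changes were seen for uncalled values: Bmp2 with injury in controls (-0.034 to 0.191) and in cKO mice (-0.139 to 0.059), and contralaterally Nog (-0.016 to 0.120) and Smad9 (-0.0997 to 0.0045). The same was seen for Crim1 in controls (-0.067 to 0.017) and Acvrl1 in cKO mice (-0.022 to 0.139). Without the 3 contralateral cKO libraries, Bmp4 (0.40) and Bmp7 (0.36) with injury in cKO mice and Smad9 contralaterally (0.087) changed sign. Among named pathway genes in controls, Cer1 lost its call without H65 or H96 (-0.50 to -0.34 over all mice left out), Bmper without H63, H65, H96 or H97 (0.32 to 0.45), and Acvrl1 without those 4, H61 or H100 (0.28 to 0.38) or with no filter; in cKO mice Atoh8 and Crim1 lost it without H95, Smad7 without H64, H95, H97 or H100 or with no filter, and Bmp15 when only the libraries compared were fitted. The fixed replicate block called 4 of the 10 genes with injury in controls, 6 in cKO mice and 0 for the interaction. Of all 28564 genes it called 8559, 9015 and 0. The fixed block gained Id3 and Bmp1 in cKO mice (-0.21 and 0.42) and Smad6 and Smad7 in controls (-0.36 and -0.34). Mouse as a random effect did not call Id3 (limma adjusted p = 0.0627), Smad6 (0.153) or Smad7 (0.0938) and called Bmp1 (0.43, limma adjusted p = 0.0208). The causes were not tested. Each of the 10 genes had at least 101 counts in each library.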
